A study of Homo sapiens with 6 samples.

Results

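The genes described here encode the subunits, assembly chaperones, activators and inhibitor of the proteasome that carry a PSM symbol. Members were the listed genes whose symbol is PSM followed by a letter from A to G and a number, which left out pseudogenes, antisense genes and genes with other symbols. The rule gave 46 of the 21151 listed genes, out of 58 with a symbol that starts with PSM, and all 46 passed the filter on low counts and were tested. No listed gene had the symbol PSMA8 or PSMB11, so these 2 genes were not analysed here. The cells were human dermal fibroblasts of the line CCD-1064Sk, grown in serum-containing medium, and the study asked what the zinc-finger gene ZNF469 does for production of extracellular matrix. In 3 libraries (shZNF469) the cells carried short-hairpin RNA against ZNF469 and their genotype is given as ZNF469 knockdown. In the other 3 (shControl) they carried a control hairpin and their genotype is given as WT. How many hairpins were used, and their sequence, is not stated by the labels, and 1 fibroblast line stands behind all 6 libraries. Because the series text speaks of technical replicates, every p-value below reflects library-to-library spread and says nothing about separate cultures.

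The proteasome is the main protease of the cytosol and nucleus and degrades proteins that have been marked with ubiquitin. Its barrel, the 20S core particle, is built from outer alpha rings (PSMA genes), which gate the entrance, and inner beta rings (PSMB genes), which hold the proteolytic sites. The 19S regulatory particle caps the barrel. Its ATPases (PSMC genes) unfold substrates, and its other subunits (PSMD genes) bind ubiquitin chains and cut them off. Interferon-gamma replaces the catalytic subunits PSMB6, PSMB7 and PSMB5 with PSMB9, PSMB10 and PSMB8, which gives the immunoproteasome, known for making peptides for presentation on class I molecules. In fibroblasts, which secrete large amounts of matrix protein, the proteasome also clears misfolded proteins exported from the endoplasmic reticulum.

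Total counts ran from 35417366 to 48298264 per library, and a PSM gene had between 246 and 9845 counts in a library. ZNF469 (ENSG00000225614) had 21.4, 18.3 and 18.5 CPM in shZNF469 libraries, against 39.7, 46.2 and 39.9 CPM in shControl libraries, which left 46.2% of the control level (log2 fold change -1.12, SE 0.09, edgeR adjusted p = 0.000873). CPM here are counts relative to library size after scaling of the libraries by the trimmed mean of M-values, and a log2 fold change above 0 means a higher level in shZNF469. All 12 fibroblast markers were listed, with a summed TPM (the authors' abundance per transcript length) of 26440 ± 735 in shZNF469 libraries and 34048 ± 1349 in shControl libraries (SD, n = 3 each). Of these markers VIM was higher in edgeR (8.33%, against 4.56% of all genes). COL1A1, COL1A2 and COL3A1 were lower (25.0%, against 5.34% of all genes). The lower sum did not hold for most markers singly. Over the 12 the median log2 fold change was 0.13, and 4 had a fitted value below 0 (33.3%, against 49.3% of all genes). At an unadjusted p under 0.05 in edgeR, 6 were higher and 3 lower (12.1% and 12.3% of all genes). Of the keratinocyte markers 2 of 8 were listed (KRT10 and EPCAM), summing to 18.5 to 19.7 TPM in shZNF469 libraries and 24.9 to 28.8 TPM in shControl libraries. Of the endothelial markers 2 of 6 were listed (VWF and CLDN5), at no more than 0.55 TPM in sum. Of the immune cell markers 2 of 8 were listed (CD68 and CD14), summing to 204 to 245 TPM in shZNF469 libraries and 172 to 195 TPM in shControl libraries. Nearly all of this sum was CD68. CD14 was at 1.04 to 1.54 TPM in shZNF469 libraries and 0.72 to 1.76 TPM in shControl libraries. Of the melanocyte markers 2 of 7 were listed (PMEL and MITF), summing to 51.3 to 62.6 TPM in shZNF469 libraries and 38.0 to 42.4 TPM in shControl libraries. Of these 8 genes of other cell types, KRT10 fell and PMEL rose in edgeR, and their part in the results below was not tested.

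Proteasome gene expression was slightly lower in shZNF469 fibroblasts over most subunits, and few genes passed the test singly. The 46 genes summed to 4256, 4334 and 4390 TPM in shZNF469 libraries, against 4931, 4785 and 5122 TPM in shControl libraries. The groups did not overlap. In bulk RNA, fewer cells of a kind and less RNA per cell cannot be told apart. The shZNF469 mean was 87.5% of the shControl mean (4327 ± 67.1 and 4946 ± 169 TPM, SD, n = 3 each). At an adjusted p under 0.05 in edgeR's quasi-likelihood test, 4 of the 46 genes fell (PSMC3, PSMC2, PSMD2 and PSME3), which is 8.7%, and 0 rose. Over all 16353 genes tested, 5.34% were lower and 4.56% were higher. Among the 10100 genes with a mean CPM at or above that of the lowest PSM gene, 6.93% were lower and 6.22% higher. The share of PSM genes called lower is thus near the background. At an unadjusted p under 0.05, 24 PSM genes were lower and 1, PSMG2, was higher, where 12.3% of all genes tested were lower and 12.1% higher. DESeq2 called 17 PSM genes lower (37.0%, with a background of 11.3%) and 0 higher (background 11.3%), and the 4 genes called by edgeR were among the 17.

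The direction was shared more widely than the calls. The fitted log2 fold change was below 0 for 41 of 46 PSM genes (89.1%), against 49.3% of all genes tested and 50.5% of those at a matched level. In 23 of the 46 PSM genes every shZNF469 library had a lower CPM than every shControl library, where 15.7% of all genes did so and 18.4% at a matched level. Only PSMG2 lay above in every library (2.17% of the members, background 15.6%). The median log2 fold change was -0.18 over the PSM genes, or 88.2% of the control level, and 0.00 over all genes tested. The shifts were small: 38 of the 46 lay between -0.3 and 0, and their SE ran from 0.05 to 0.20 with a median of 0.08. PSM genes of 1 library moved together. Replicate 3 was the highest of the shZNF469 libraries in 36 genes and replicate 2 the lowest in 30. Among shControl libraries replicate 3 was the highest in 40 genes, and replicates 1 and 2 were the lowest in 19 and 26. The median PSM gene lay at -0.11, -0.18 and 0.01 in shZNF469 libraries and at 0.07, 0.03 and 0.19 in shControl libraries, on a log2 scale about its own mean over the 6 libraries. The members of a library are therefore not separate observations of the knockdown.

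**Figure D1:**
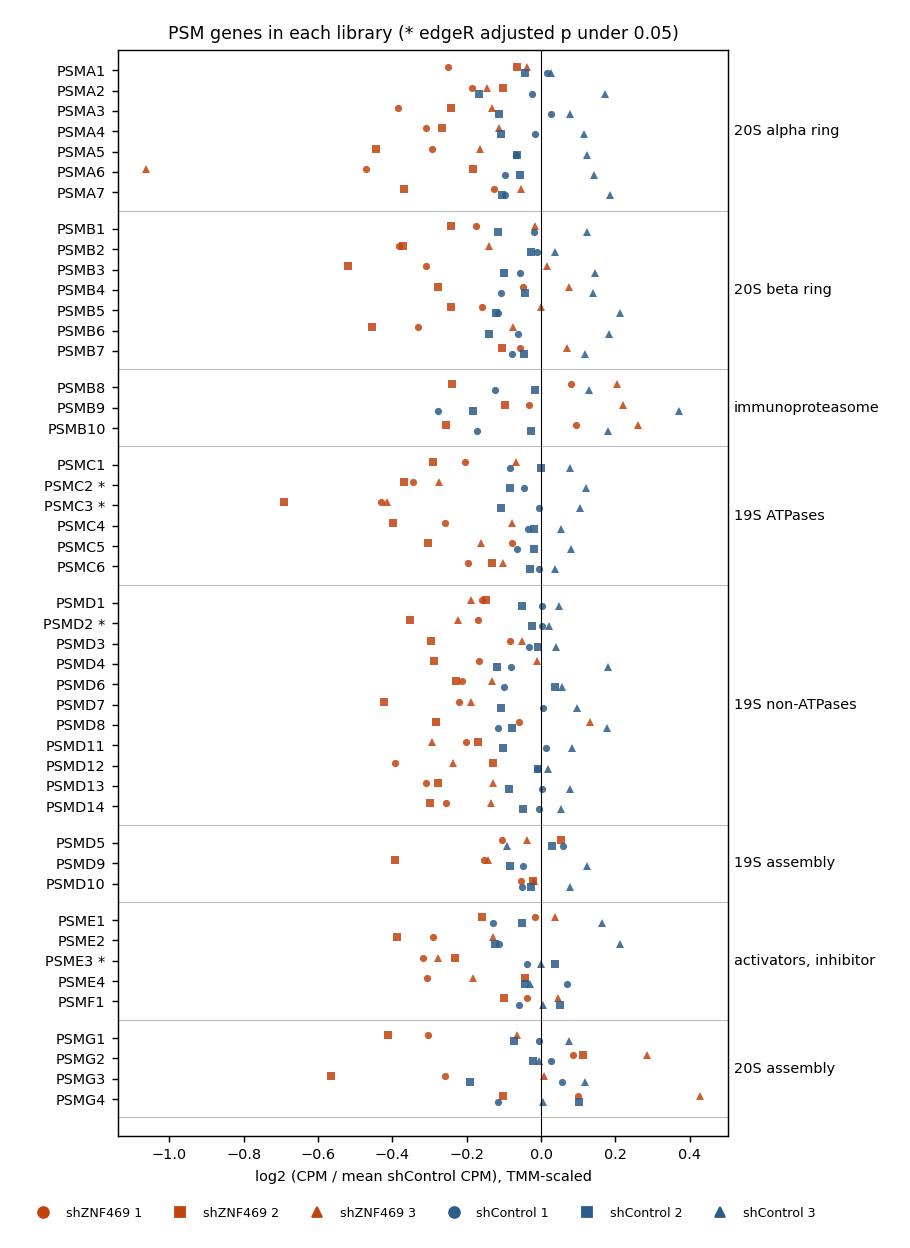
CPM of each of the 46 PSM genes in each library as log2 of its ratio to the mean shControl CPM (x axis), grouped by role, with shZNF469 libraries in orange and shControl libraries in blue and the marker shape giving the replicate number. Most shZNF469 points lie left of the line at 0 in the 20S and 19S genes, while in the immunoproteasome genes the 2 colours overlap.

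In CPM the 19S regulatory particle had the most genes with separated groups. Of its 17 subunit genes, 3 fell (PSMC3, PSMC2 and PSMD2) in edgeR (17.6%, against 5.34% of all genes) and 0 rose (4.56%). At an unadjusted p under 0.05, 14 were lower and 0 higher (12.3% and 12.1% of all genes). In CPM the groups did not overlap for 14 of the 17, all lower (15.7% of all genes). In TPM PSMC1 and PSMD4 lay apart too, whereas PSMC6, PSMD11 and PSMD12 overlapped. DESeq2 called 12 of the 17 lower (11.3% of all genes). The median log2 fold change of the 17 was -0.22. Summed over the 17 genes, shZNF469 libraries had 1447, 1431 and 1450 TPM and shControl libraries 1707, 1660 and 1755 TPM, so that the shZNF469 level was 84.5% of the shControl level.

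Among the 6 ATPase genes, whose products form the ring that unfolds substrates and opens the core, 2 fell and 4 did not pass. These 2 are 33.3% of the ATPase genes, against 5.34% called lower over all genes. PSMC3 (chromosome 11, 47418775 to 47426439, minus strand, GRCh38.p14) had 56.9, 47.4 and 57.5 CPM in shZNF469 libraries, against 76.4, 71.1 and 82.5 CPM in shControl libraries. The groups lay apart, and shZNF469 replicate 2 was the lowest of all. PSMC3 was 1.42-fold lower (log2 fold change -0.51, SE 0.09, edgeR adjusted p = 0.0172). PSMC2 (chromosome 7, 103347524 to 103369395, plus strand) had 67.3, 66.2 and 70.7 CPM in shZNF469 libraries, against 82.8, 80.7 and 93.0 CPM in shControl libraries. These groups did not overlap either, and PSMC2 was 1.26-fold lower (log2 fold change -0.33, SE 0.07, edgeR adjusted p = 0.0281). In CPM PSMC4, PSMC5 and PSMC6 were also lower in every shZNF469 library than in any shControl library without passing, and PSMC1 overlapped. In TPM PSMC6 overlapped, and PSMC1 lay apart at 37.8 to 39.1 in shZNF469 libraries and 42.8 to 45.1 in shControl libraries. The log2 fold changes of these 4 genes ran from -0.24 to -0.14. As a ring the ATPase genes summed to 393 ± 5.34 TPM in shZNF469 libraries and 488 ± 12.6 TPM in shControl libraries (SD, n = 3 each), or 80.6% of the control level. Neither PSMC3 nor PSMC2 shares exon bases with another gene in GENCODE release 29. The call of PSMC3 was lost without shZNF469 replicate 1 (adjusted p = 0.0552), shControl replicate 1 (0.0736) or shControl replicate 3 (0.0661) in edgeR. That of PSMC2 was lost in edgeR without each library other than shZNF469 replicate 3 (adjusted p = 0.0564 to 0.0992), and on the authors' TPM with limma (adjusted p = 0.132).

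The promoters of both ATPase genes that fell are shown. Both promoters hold the same short motif, whose part in the lower levels was not tested. They are RefSeq sequences of GRCh38.p14, from 250 bases before to 50 bases after the annotated start, and 40 of the 46 PSM genes had such an entry. The PSMC3 window is chr11:47426390-47426689 on the minus strand and the PSMC2 window is chr7:103347393-103347692 on the plus strand, each written along the gene's strand with CCAAT, the motif bound by the NF-Y factor, in capitals. It begins 114 bases before the start in PSMC3. The PSMC2 window is set on a start that lies inside the gene span given above, and CCAAT begins 31 bases before that start, also within the span.
PSMC3: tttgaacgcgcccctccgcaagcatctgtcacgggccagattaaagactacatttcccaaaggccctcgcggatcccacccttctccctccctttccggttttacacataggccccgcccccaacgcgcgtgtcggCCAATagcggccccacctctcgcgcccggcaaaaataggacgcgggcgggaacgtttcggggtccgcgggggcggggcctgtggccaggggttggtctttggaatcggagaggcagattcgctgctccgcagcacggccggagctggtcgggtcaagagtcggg
PSMC2: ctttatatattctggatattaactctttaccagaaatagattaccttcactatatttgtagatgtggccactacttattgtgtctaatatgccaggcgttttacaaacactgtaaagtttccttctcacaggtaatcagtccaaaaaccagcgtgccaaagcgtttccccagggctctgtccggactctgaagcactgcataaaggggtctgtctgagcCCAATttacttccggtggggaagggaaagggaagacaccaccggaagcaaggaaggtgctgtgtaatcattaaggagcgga
CCAAT, searched on both strands, was found in 18 of the 40 PSM promoters (45.0%) and in 35.7% of all 27305 promoters of the same length. No searched motif was found in the window of PSMD2, the third 19S gene that fell. A match describes the letters of the window and not a bound site.

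**Figure D2:**
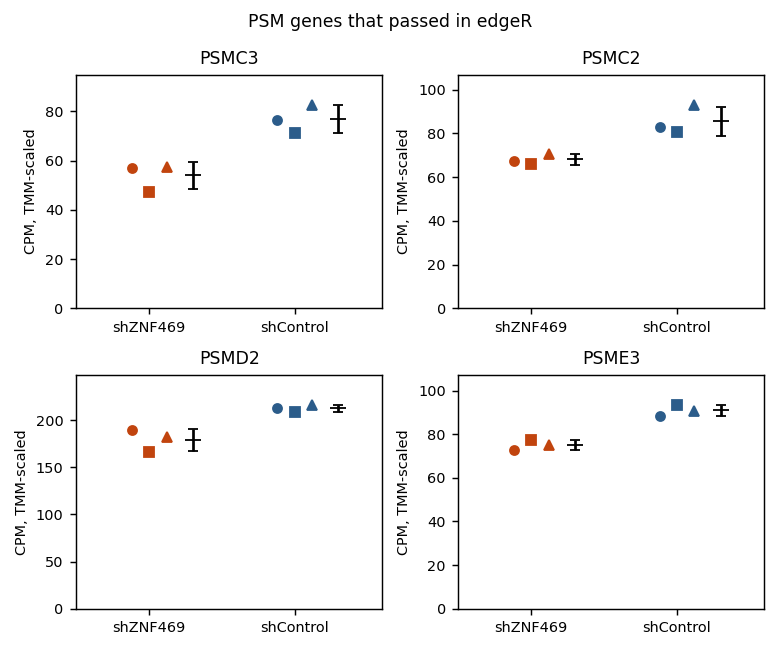
CPM of the 4 PSM genes that passed in edgeR, for each shZNF469 library (orange, left) and shControl library (blue, right), with mean ± SD as bars (n = 3 each) and marker shapes as replicate numbers 1 (circle), 2 (square) and 3 (triangle). Each orange point lies below each blue one, and PSMC3, at 53.9 ± 5.65 CPM in shZNF469 libraries and 76.7 ± 5.69 CPM in shControl libraries, has the widest gap relative to its level.

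Of the 11 non-ATPase genes of the 19S particle, 1 fell (9.09%, near the 5.34% of all genes) and 10 did not pass. Their median log2 fold change was -0.22. DESeq2 called 8 of them lower (72.7%, against 11.3% of all genes). PSMD2 (chromosome 3, 184299241 to 184309050, plus strand), a large base subunit that docks shuttle factors carrying ubiquitinated cargo, had 189, 167 and 182 CPM in shZNF469 libraries. In shControl libraries it had 213, 209 and 216 CPM, so the groups did not overlap. It was 1.19-fold lower (log2 fold change -0.25, SE 0.06, edgeR adjusted p = 0.0435). This call was lost in edgeR without each library other than shZNF469 replicate 2 (adjusted p = 0.0717 to 0.153) and on TPM with limma (adjusted p = 0.0682). PSMD14, the deubiquitinase that removes the chain from a bound substrate, was nearest to passing among the rest of these genes (log2 fold change -0.23, edgeR adjusted p = 0.0597). PSMD7, its partner in the lid, had -0.27 (edgeR adjusted p = 0.0857), and PSMD1, the other large base subunit, had -0.17 (edgeR adjusted p = 0.090). In CPM the ubiquitin receptor PSMD4 overlapped between groups (log2 fold change -0.15), as did PSMD8 (-0.06). In TPM PSMD4 lay apart, with 148, 143 and 153 in shZNF469 libraries and 162, 157 and 178 in shControl libraries. PSMD8 was at 180.9 TPM on average in shZNF469 libraries and 204 TPM in shControl libraries, with overlap. The lid genes PSMD11, PSMD12 and PSMD13 lay between -0.25 and -0.22, PSMD6 at -0.19 and PSMD3 at -0.14. The groups of each did not overlap in CPM, whereas those of PSMD11 and PSMD12 overlapped in TPM.

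The 3 chaperones that assemble the 19S base, PSMD5, PSMD9 and PSMD10, are no part of the finished particle. In edgeR 0 of 3 rose or fell, and 0 in either direction with DESeq2. At an unadjusted p under 0.05, 1 was lower (12.3% of all genes). PSMD5 and PSMD10 had log2 fold changes of -0.03 each, and PSMD9 had -0.23 (edgeR adjusted p = 0.177) with groups that did not overlap.

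The 14 constitutive 20S genes had a median log2 fold change of -0.20, and none passed singly in edgeR. At an unadjusted p under 0.05, 6 were lower and 0 higher (12.3% and 12.1% of all genes), and DESeq2 called 4 lower and 0 higher (11.3% each of all genes). In CPM the groups did not overlap for 5 of the 14, all lower (35.7%, against 15.7% of all genes). In TPM they also lay apart, lower, for PSMA7, PSMB1, PSMB3, PSMB5 and PSMB6, whereas PSMA4 overlapped. Over all genes 14.3% lay apart and lower in TPM. The summed level of the 14 genes was 1937, 2030 and 2050 TPM in shZNF469 libraries, against 2303, 2189 and 2417 TPM in shControl libraries. This was 87.1% of the control level without overlap. In the alpha ring, which gates the barrel, all 7 genes had fitted values below 0 (median log2 fold change -0.23). The groups did not overlap in CPM for PSMA3, PSMA4, PSMA5 and PSMA6. PSMA5 had a log2 fold change of -0.30 (edgeR adjusted p = 0.0845). PSMA6 had the lowest fitted value of all 46 genes, -0.53, but with the widest error (SE 0.20, edgeR adjusted p = 0.156). It had 50.6, 61.7 and 33.6 CPM in shZNF469 libraries, against 65.6, 67.5 and 77.3 CPM in shControl libraries, so that shZNF469 replicate 3 stood far below the rest. This same library was the highest of its group for most other PSM genes. PSMA6 shares 919 exon bases with another protein-coding gene on its own strand, whose part in the low value was not tested.

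In the beta ring the 7 constitutive genes had a median log2 fold change of -0.14. PSMB2, which holds no active site, came nearest to passing of all PSM genes that did not. It had 69.0, 69.5 and 81.6 CPM in shZNF469 libraries, against 89.3, 88.3 and 92.3 CPM in shControl libraries (log2 fold change -0.30, edgeR adjusted p = 0.0535). It was the only beta gene whose groups did not overlap in CPM. PSMB4, a structural beta subunit, had the highest TPM of all PSM genes, with 324, 296 and 335 TPM in shZNF469 libraries and 328, 340 and 357 TPM in shControl libraries. Its groups overlapped (log2 fold change -0.08, edgeR adjusted p = 0.734). Although the subunits of the core stand in equal number in the particle, their TPM were unequal. TPM between genes depend on the transcript lengths used. In CPM, which are not divided by length, PSMB4 had 131, 112 and 143 in shZNF469 libraries and 126, 132 and 150 in shControl libraries, nearer to PSMB2. PSMB4 exceeded PSMB2 in TPM by 9.03-fold, 7.69-fold and 8.41-fold in shZNF469 libraries and by 6.77-fold, 7.14-fold and 7.75-fold in shControl libraries. In the 19S particle the widest gap was that of PSMD8 over PSMD12, at 9.19-fold, 6.44-fold and 9.74-fold in shZNF469 libraries and 7.17-fold, 6.81-fold and 9.42-fold in shControl libraries.

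**Figure D3:**
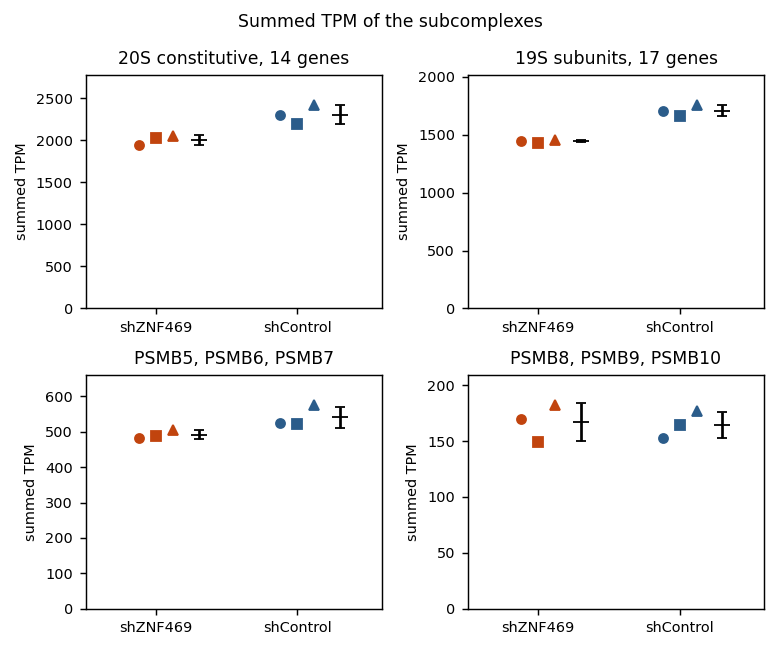
Summed TPM of the 14 constitutive 20S genes, the 17 genes of the 19S particle, the constitutive catalytic genes and the immunoproteasome genes (y axes, each from 0) in each shZNF469 library (orange, left) and shControl library (blue, right), with mean ± SD (n = 3 each). The groups lie apart in the first 3 panels and overlap for PSMB8, PSMB9 and PSMB10.

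The immunoproteasome genes lay near their control level. In edgeR 0 of the 3 rose or fell (0 in either direction also at an unadjusted p under 0.05 and with DESeq2), and their median log2 fold change was 0.04. PSMB8, the chymotrypsin-like subunit, had 99.9, 85.5 and 105 TPM in shZNF469 libraries, against 90.9, 96.0 and 97.5 TPM in shControl libraries. The fitted log2 fold change was 0.03 with a 95% interval of -0.31 to 0.36 (edgeR adjusted p = 0.935). PSMB9, which replaces PSMB6, had 29.1, 28.3 and 32.9 TPM in shZNF469 libraries, against 26.3, 27.7 and 36.4 TPM in shControl libraries. Its log2 fold change was 0.04 (interval -0.46 to 0.54, edgeR adjusted p = 0.938). PSMB10, which replaces PSMB7, had 41.0, 35.02 and 43.6 TPM in shZNF469 libraries, against 35.9, 40.4 and 42.7 TPM in shControl libraries (log2 fold change 0.05, interval -0.36 to 0.46, edgeR adjusted p = 0.895). In all 3 genes the groups overlapped, and the intervals include the median shift of the constitutive core genes, so a change of that size was not detectable here. PSMB8 shares 618 exon bases with its antisense gene PSMB8-AS1, listed at 1.17 to 2.52 TPM in shZNF469 libraries and 1.92 to 3.05 TPM in shControl libraries, and 139 with PSMB9, so their reads can be mixed.

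The constitutive counterparts also stayed short of the threshold. PSMB5 had 151, 152 and 157 TPM in shZNF469 libraries, against 161, 163 and 186 TPM in shControl libraries (log2 fold change -0.13, SE 0.11, edgeR adjusted p = 0.548). PSMB6 had 106, 103 and 118 TPM in shZNF469 libraries, against 133, 125 and 144 TPM in shControl libraries (log2 fold change -0.28, SE 0.12, edgeR adjusted p = 0.204). PSMB7 had 226, 232 and 231 TPM in shZNF469 libraries, against 231, 235 and 244 TPM in shControl libraries (log2 fold change -0.03, SE 0.07, edgeR adjusted p = 0.875). In TPM the groups lay apart for PSMB5 and PSMB6 and overlapped for PSMB7, whereas in CPM they overlapped for all 3.

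**Figure D4:**
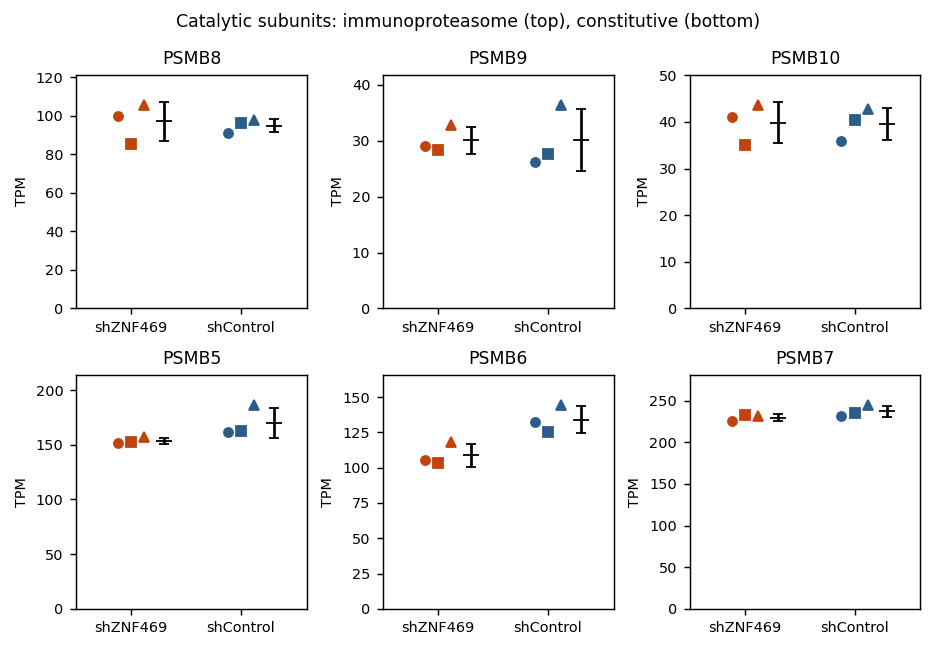
TPM of the immunoproteasome genes PSMB8, PSMB9 and PSMB10 (top) and of their constitutive counterparts PSMB5, PSMB6 and PSMB7 (bottom) in each shZNF469 library (orange, left) and shControl library (blue, right), with mean ± SD (n = 3 each). The groups overlap in the top row, and PSMB6, at 103 to 118 TPM in shZNF469 libraries and 125 to 144 TPM in shControl libraries, shows the clearest gap in the bottom row.

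Set against each other, the 3 immunoproteasome genes had 0.339 times the summed TPM of their counterparts in shZNF469 libraries and 0.304 times in shControl libraries on average. On the log2 scale this ratio was -1.50, -1.71 and -1.48 in shZNF469 libraries, against -1.78, -1.67 and -1.70 in shControl libraries. Replicate 2 of shZNF469 lay among the shControl libraries, so the groups overlapped. The ratio of PSMB9 to PSMB6 was 0.276, 0.275 and 0.279 in shZNF469 libraries, against 0.198, 0.222 and 0.252 in shControl libraries, with no overlap. The ratio of PSMB8 to PSMB5 (0.661, 0.562 and 0.673 in shZNF469 libraries, 0.564, 0.589 and 0.524 in shControl libraries) overlapped. That of PSMB10 to PSMB7 overlapped too (0.182, 0.151 and 0.189 in shZNF469 libraries, 0.155, 0.171 and 0.175 in shControl libraries). The balance of the 19S particle to the core, as the log2 ratio of mean TPM per gene, was -0.70, -0.78 and -0.78 in shZNF469 libraries and -0.71, -0.68 and -0.74 in shControl libraries. These overlapped as well.

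The windows before PSMB9 and PSMB10 are shown for comparison with those of the ATPase genes that fell. PSMB9 lies on chromosome 6 beside TAP1, the peptide transporter gene with which it is known to share a promoter region, and its window is chr6:32853942-32854241 on the plus strand. CCAAT begins 243 bases before the start there, and TGACNNNGC, the core of the antioxidant response element that NFE2L1 and NFE2L2 bind, 148 bases before it on the reverse strand. The PSMB10 window is chr16:67936801-67937100 on the minus strand, and the repeat bound by interferon regulatory factors (GAAA, any 2 bases, GAAA, searched on both strands like the others) begins 21 bases before the start. Capitals mark these matches.
PSMB9: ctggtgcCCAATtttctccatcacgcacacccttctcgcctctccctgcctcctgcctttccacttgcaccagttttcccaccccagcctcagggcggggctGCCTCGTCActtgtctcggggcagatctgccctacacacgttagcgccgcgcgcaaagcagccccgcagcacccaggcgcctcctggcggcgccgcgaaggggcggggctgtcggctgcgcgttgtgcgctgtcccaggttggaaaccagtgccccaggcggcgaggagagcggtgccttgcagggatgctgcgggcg
PSMB10: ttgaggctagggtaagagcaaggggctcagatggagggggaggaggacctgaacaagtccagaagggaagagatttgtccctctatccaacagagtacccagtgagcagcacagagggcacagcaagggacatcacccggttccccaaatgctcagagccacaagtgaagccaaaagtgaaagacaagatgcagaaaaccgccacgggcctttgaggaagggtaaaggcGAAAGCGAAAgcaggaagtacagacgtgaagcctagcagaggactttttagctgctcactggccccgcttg
The interferon repeat was found in 6 of 40 PSM promoters (15.0%; PSMA4, PSMB4, PSMB10, PSME1, PSME2 and PSMG4) and in 3.65% of all promoters. The antioxidant core was found in 13 of 40 (32.5%) and in 13.6% of all promoters. Neither motif lay in the windows of PSMC3 and PSMC2, and the window used for PSMB8, the first of several annotated starts, held no searched motif.

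Of the 5 genes of activators and the inhibitor, 1 fell (PSME3) and 0 rose in edgeR (5.34% and 4.56% of all genes). At an unadjusted p under 0.05, 2 were lower (12.3% of all genes). The fitted value was below 0 for all 5 (49.3% of all genes), with a median log2 fold change of -0.17. PSME3 (chromosome 17, 42833397 to 42843760, plus strand) encodes the nuclear activator REG-gamma, which lets the core degrade some proteins without ubiquitin. It had 72.9, 77.4 and 74.9 CPM in shZNF469 libraries, against 88.5, 93.2 and 90.8 CPM in shControl libraries. The groups lay well apart with little spread within each, and PSME3 was 1.21-fold lower (log2 fold change -0.28, SE 0.05, edgeR adjusted p = 0.0198). The call was lost in edgeR without shZNF469 replicate 1 (adjusted p = 0.0784) or without any 1 of the shControl libraries (adjusted p = 0.0763 to 0.0946), and on TPM with limma (adjusted p = 0.0896). PSME3 shares 300 exon bases with BECN1 on the opposite strand, listed at 62.6 to 70.3 TPM in shZNF469 libraries and 66.8 to 73.0 TPM in shControl libraries. Without a stated strand setting their reads cannot be told apart. Its window, chr17:42833147-42833446 on the plus strand, is shown because this gene fell. Capitals mark CCAAT on the reverse strand, 12 bases before the start, and TTCNNNGAA, the last motif searched, 230 bases before it.
PSME3: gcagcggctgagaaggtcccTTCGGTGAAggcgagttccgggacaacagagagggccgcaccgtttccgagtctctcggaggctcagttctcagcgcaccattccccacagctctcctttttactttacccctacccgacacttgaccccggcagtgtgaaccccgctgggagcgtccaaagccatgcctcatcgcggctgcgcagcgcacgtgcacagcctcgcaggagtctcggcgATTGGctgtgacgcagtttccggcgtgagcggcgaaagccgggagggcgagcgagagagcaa
The heat shock core was found in 4 of 40 PSM promoters and in 7.88% of all promoters.

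The interferon-inducible activator genes PSME1 and PSME2, whose products form the PA28 cap together, both stayed short of the threshold. PSME1 had 231, 216 and 219.6 TPM in shZNF469 libraries, against 219, 226 and 249 TPM in shControl libraries (log2 fold change -0.04, SE 0.09, edgeR adjusted p = 0.835). PSME2 had 76.3, 73.5 and 81.9 TPM in shZNF469 libraries, against 99.2, 97.4 and 114 TPM in shControl libraries. These did not overlap, but PSME2 did not pass in edgeR (log2 fold change -0.27, SE 0.11, adjusted p = 0.193), and it did on TPM with limma (adjusted p = 0.0257). The difference between the fold changes of PSME1 and PSME2 was not tested. PSME4, the large nuclear activator PA200, had a log2 fold change of -0.17 (edgeR adjusted p = 0.219). PSMF1, which encodes an inhibitor of the core, had 84.8, 81.3 and 89.9 CPM in shZNF469 libraries, against 83.6, 90.2 and 87.4 CPM in shControl libraries, with overlap (log2 fold change -0.03, SE 0.06, edgeR adjusted p = 0.830). On the authors' TPM with limma its log2 fold change was -0.22 (adjusted p = 0.514).

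Of the 4 PSMG chaperones, which build the alpha ring, 0 rose or fell in edgeR and 0 with DESeq2. At an unadjusted p under 0.05, 1 was lower (PSMG1) and 1 higher (PSMG2), where 12.3% and 12.1% of all genes were. In CPM PSMG2 was the only PSM gene with every shZNF469 library above every shControl library. It had 38.9, 39.6 and 44.7 CPM in shZNF469 libraries and 37.4, 36.1 and 36.5 CPM in shControl libraries (log2 fold change 0.16, SE 0.07, edgeR adjusted p = 0.187). In TPM PSMG2 overlapped, with 80.5, 91.8 and 89.4 in shZNF469 libraries and 84.3, 80.9 and 73.7 in shControl libraries. Its partner PSMG1 went the other way in fitted value (log2 fold change -0.25, edgeR adjusted p = 0.159). PSMG3 had the lowest TPM of the PSM genes, with 14.7, 12.1 and 17.5 TPM in shZNF469 libraries and 20.4, 15.4 and 17.3 TPM in shControl libraries (log2 fold change -0.25, SE 0.16, edgeR adjusted p = 0.406), and PSMG4 had a log2 fold change of 0.16 (edgeR adjusted p = 0.615).

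**Figure D5:**
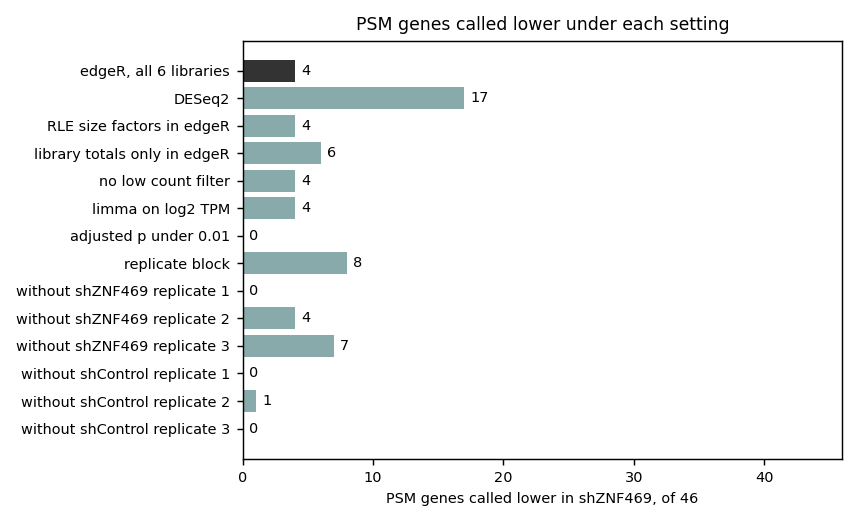
Number of the 46 PSM genes called lower in shZNF469 (x axis) in edgeR with all 6 libraries (dark bar) and in each of 13 alternatives (light bars), including those that leave out 1 library. The count runs from 0 to 17 around the value of 4, and it is 0 without shZNF469 replicate 1, shControl replicate 1 or shControl replicate 3.

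The count of 4 changed with the libraries included. It was 0 when shZNF469 replicate 1, shControl replicate 1 or shControl replicate 3 was left out. It was 1 with shControl replicate 2 left out, 4 with shZNF469 replicate 2 left out and 7 with shZNF469 replicate 3 left out. Lower calls over all genes tested dropped too, from 874 with all 6 libraries. They were at most 405 without shZNF469 replicate 1 or without any 1 shControl library. Without shZNF469 replicates 2 and 3 they were 854 and 625. Whether PSM genes lost more calls than other genes was not tested. Over the same leave-outs the median log2 fold change of the PSM genes stayed between -0.22 and -0.14.

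Genes that work beside the PSM subunits gave few calls. Of 18 partners of the proteasome outside the PSM symbols, 1 fell (5.56%, against 5.34% of all genes) and 0 rose in edgeR. Their median log2 fold change was -0.05. DESeq2 called 3 higher and 2 lower (16.7% and 11.1%, against 11.3% of all genes each way). The gene that fell was UCHL5, a deubiquitinase of the 19S particle, 1.21-fold lower (log2 fold change -0.28, edgeR adjusted p = 0.0493), a call lost in all 13 alternatives other than DESeq2. POMP, the chaperone that matures the core, had 50.6, 56.1 and 57.1 CPM in shZNF469 libraries, against 63.9, 62.0 and 66.6 CPM in shControl libraries. Its groups did not overlap (log2 fold change -0.23, SE 0.06, edgeR adjusted p = 0.0661), and it passed with DESeq2 (adjusted p = 0.00335). Of 17 genes of ubiquitin and its activation, 1 rose (5.88%, against 4.56% of all genes) and 0 fell in edgeR. Their median log2 fold change was -0.13, with fitted values below 0 for 12 (70.6%, against 49.3% of all genes). The riser was UBE2R2, a ubiquitin-conjugating enzyme (log2 fold change 0.21, edgeR adjusted p = 0.0380), a call lost in 5 of the 6 fits without 1 library. At an unadjusted p under 0.05 there were 5 lower and 1 higher (12.3% and 12.1% of all genes). With DESeq2 there were 4 lower and 1 higher (11.3% of all genes each way). The groups did not overlap for 6 lower genes and 2 higher ones (35.3% and 11.8%, against 15.7% and 15.6% of all genes).

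Of 18 known or proposed regulators of proteasome genes, 2 rose and 1 fell in edgeR (11.1% and 5.56%). Over all genes 4.56% were higher and 5.34% lower. The median log2 fold change of the list was 0.05. NFE2L1, the factor that raises proteasome genes when the proteasome is inhibited, was at 392 ± 17.3 CPM in shZNF469 libraries and 376 ± 6.89 CPM in shControl libraries (SD, n = 3 each; log2 fold change 0.06, edgeR adjusted p = 0.562). Its activity is set after translation, which these data do not measure. ATF4, the factor of the integrated stress response, was 1.30-fold lower (log2 fold change -0.38, edgeR adjusted p = 0.0162). HSF1, the heat shock factor, and NFYA, a CCAAT-binding subunit, were higher (log2 fold changes 0.27 and 0.30, edgeR adjusted p = 0.0347 and 0.0415). Leaving out single libraries ended the calls of ATF4, HSF1 and NFYA in 4, 5 and 5 of 6 cases.

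Interferon and antigen presentation genes are the usual company of the immunoproteasome. Of 30 such genes, 3 rose and 3 fell in edgeR (4.56% and 5.34% of all genes). Their median log2 fold change was 0.13. At an unadjusted p under 0.05, 10 were higher and 4 lower (12.1% and 12.3% of all genes). DESeq2 called 7 higher and 4 lower (23.3% and 13.3%, against 11.3% of all genes each way). HLA-E, a class I gene, was 1.43-fold higher (log2 fold change 0.52, edgeR adjusted p = 0.00191), and GBP2 and IFNGR1 were higher too. IFIT1, an interferon-induced antiviral gene, was 1.47-fold lower (log2 fold change -0.55, edgeR adjusted p = 0.00344). PDIA3, a chaperone of class I loading, was 1.15-fold lower (log2 fold change -0.21, edgeR adjusted p = 0.0176), a call lost in 4 of the 6 fits without 1 library, and CALR was lower as well. TAP1, the neighbour of PSMB9, had a log2 fold change of 0.20 (edgeR adjusted p = 0.202), and the class I light chain gene B2M had 0.18 (edgeR adjusted p = 0.155).

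Proliferation genes were lower in the same libraries, and by more than the PSM genes. All 16 fell in edgeR (median log2 fold change -1.07), against 5.34% of all genes. Their summed TPM was 244, 249.8 and 248 in shZNF469 libraries and 483, 475.5 and 465 in shControl libraries. MKI67 was at 14.8 ± 0.541 CPM in shZNF469 libraries and 33.2 ± 0.689 CPM in shControl libraries (SD, n = 3 each; log2 fold change -1.17, edgeR adjusted p = 0.000159). RRM2 and CCNA2 were 2.78-fold and 2.25-fold lower. Mitochondrially encoded transcripts, a sign of RNA and library composition, summed to 76137, 71793 and 76888 TPM in shZNF469 libraries and 61735, 64345 and 65414 TPM in shControl libraries. In edgeR 3 of 9 rose (33.3%, against 4.56% of all genes) and 0 fell. MT-ATP6 rose by 1.48-fold, MT-ND2 by 1.38-fold and MT-CYB by 1.35-fold. The call of MT-CYB was lost without any 1 library other than shZNF469 replicate 2. The part of either in the lower level of PSM genes was not tested.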

How the data were processed

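Total RNA of CCD-1064Sk dermal fibroblasts gave 3 shZNF469 and 3 shControl libraries, prepared with a NEBNext Ultra kit according to the labels' protocols. The submitters' processing notes name HISAT2, StringTie and the build GRCh38.p14. Annotation release and strand setting: not given in the sources used here. The deposited table holds a whole-number read count per gene and library and the TPM computed by the authors.

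Counts were analysed with edgeR 4.0.16 in R 4.3.3, using filterByExpr (minimum count 10), TMM scaling and the two-sided quasi-likelihood F-test, adjusted by Benjamini-Hochberg over the 16353 genes tested. Means are given ± SD. The SE of a log2 fold change came from the estimate and its F statistic, and 95% intervals used 4 residual degrees of freedom. TPM served for levels and ratios between genes, with a pseudocount of 1 in the limma 3.58.1 alternative. DESeq2 1.42.0, other scalings, no low-count filter, a threshold of 0.01, a replicate block and leaving out each library were the other alternatives. The fit was tested on simulated data. The spread between libraries, more than total counts, set the precision. No 2 libraries of a group agreed within sampling noise (chi-square per degree of freedom 8.70 to 34.8).

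The PSM genes, the other gene lists and the rule for named genes were chosen with earlier results of these data known. The rule named PSMB5 to PSMB10, PSME1, PSME2, PSMF1, each PSM gene that passed, those with the highest and lowest TPM, NFE2L1, POMP, ZNF469 and up to 3 passing genes per other list. Other genes were named after their values were seen. Of the 46 PSM genes, 23 share exon bases with another gene in GENCODE release 29. Promoter motifs were searched in RefSeq sequences.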

Additional observations from a re-analysis of the deposited data

How the results depend on the processing

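The count of PSM genes called lower was 17 with DESeq2, 8 with the replicate block and 0 at an adjusted p under 0.01, and from 0 to 7 when 1 library was left out, beside the value of 4. It was 4 with RLE size factors, with no low-count filter and with limma on TPM, and 6 with library totals alone. No alternative called a PSM gene higher. Deviations from the group means correlated at -0.045, 0.064 and 0.184 for same-numbered libraries, and not every library correlated best with its own number. Among PSM genes, however, replicate 3 was the highest in 36 genes for shZNF469 and in 40 for shControl. Replicate 2 was the lowest in 30 and 26. Whether the replicate numbers pair the libraries was therefore not settled. The median log2 fold change of PSM genes ran from -0.22 to -0.14 when 1 library was left out and from -0.19 to -0.17 otherwise. ZNF469 was called in all 13 alternatives (log2 fold change -1.20 to -0.94). PSMC3, PSME3, PSMC2 and PSMD2 were called in 9, 7, 6 and 6 of the 13, with adjusted p up to 0.0736, 0.0946, 0.132 and 0.153. The cause of these changes was not tested.

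Fitted values near 0 changed sign when 1 library was left out, for genes that did not pass. Over these fits the log2 fold change ran between -0.081 and 0.031 for PSMB7, -0.073 and 0.15 for PSMB8, -0.074 and 0.26 for PSMB9, -0.071 and 0.19 for PSMB10, -0.095 and 0.043 for PSME1, -0.070 and 0.0092 for PSMF1 and -0.16 and 0.020 for PSMB4. On TPM with limma PSMF1 had -0.22. The cause was not tested.

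With 3 libraries a group, shifts as small as those of most PSM genes can be missed by the test, and intervals and SE cover the spread between these libraries only.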

Other observations

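The authors' TPM and the counts did not always move together within a library. PSMA4, an alpha ring gene, had 68.1, 123 and 123 TPM in shZNF469 libraries and 142, 99.2 and 146 TPM in shControl libraries, while its CPM were 66.0, 68.0 and 75.7 in shZNF469 libraries and 80.9, 76.0 and 88.7 in shControl libraries. The groups overlapped in TPM and not in CPM. The count per TPM, set relative to that of all genes in each library, differed by up to 1.69-fold between libraries for PSMA4, and PSMF1 came next. PSMF1 had 39.0, 40.4 and 26.3 TPM in shZNF469 libraries and 43.2, 44.9 and 34.4 TPM in shControl libraries, with replicate 3 the lowest in both groups. For PSMC2, a gene that passed on counts and not on TPM, that figure was 1.35-fold.

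Over all 46 PSM genes, every shZNF469 library lay below every shControl library in TPM for 25 genes and above for 0, where 14.3% of all genes tested lay below and 10.5% above in this way.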
